A study of Mus with 8 samples.

Results

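Fatty acids reach the inside of a fat cell through a short chain of proteins, and 10 genes of this chain were followed in 3T3-L1 cells: Lpl, Vldlr, Cd36, Slc27a1, Slc27a4, Acsl1, Acsl4, Fabp4, Fabp5 and Aqp7. The genes were taken by name from a group that was proposed with earlier results of these data known, and all 10 were among the 24013 genes of the deposited count table. Of the 13339 genes with enough counts to be tested, 9 belonged to this group, and Aqp7 did not.

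Lipoprotein lipase cuts triglycerides of circulating lipoproteins into free fatty acids, and the VLDL receptor binds the lipoproteins and helps the enzyme to act on them. CD36 and the fatty acid transport proteins of the Slc27 family take the fatty acids across the plasma membrane, acyl-CoA synthetases trap them as acyl-CoA, and the small fatty acid binding proteins carry them in the cytosol. Aquaporin 7 lets glycerol leave the cell when stored fat is broken down. Several of these genes, Fabp4, Cd36 and Lpl among them, are known targets of Pparγ and are used as signs of fat cell differentiation.

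RNA was sequenced from 3T3-L1 cells, a mouse preadipocyte line that becomes fat-laden after hormonal induction. C cells carried a scrambled shRNA and P cells an shRNA against Prep1, a homeodomain transcription factor encoded by Pknox1. Both were infected with a pLKO.1 lentivirus and selected in puromycin, so the virus and the selection were common to all 8 libraries. In each of the 4 conditions, C and P cells at day −2 and at day 1, there were 2 biological replicas. Day −2 lay before the hormones were given, and the day 1 cells had received dexamethasone (1 µM), IBMX (0.5 mM), which raises cAMP, and insulin (1 µg/ml) in medium with 10% FBS. According to the methods, the line was cultured in medium with 10% BCS, and the medium was changed at induction. Induction below therefore stands for the hormones, the change of serum and the days between, which cannot be told apart here. P cells stand for a single shRNA, and the labels do not say how the cultures of the replicas were separated, so the p-values measure the spread between these libraries, which may be partly technical.

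The libraries held 20428816 to 27614353 counts, and 3 counts in a library corresponded to 0.107 to 0.160 CPM (the counts scaled to a common library size by TMM). Pknox1 lay at 26.5 to 28.1 CPM in C cells and 17.3 to 18.3 CPM in P cells at day −2, and at 36.5 to 38.1 CPM against 23.6 to 23.8 CPM at day 1. The fitted log2 ratios were −0.62 and −0.65, with adjusted p = 0.0558 and 0.0575 in edgeR's quasi-likelihood test, short of the 2-fold threshold used below. The label of the cells was checked with 6 preadipocyte markers (Dlk1, Pdgfra, Pdgfrb, Thy1, Col1a1 and Col3a1), which were all above 3 counts in every condition. Their summed level was 7749 to 14359 CPM in 6 libraries and in the uninduced P cells 10672 CPM in one replica and 41862 CPM in the other, so the replicas of P cells at day −2 stood apart from each other. Over 5600 well expressed genes, their log2 values differed with an SD of 0.795, compared with 0.121 to 0.261 in the other conditions, and the fitted ratios that rest on these libraries are therefore also given below without either of them. Without replica 1 and replica 2, the ratio of Pknox1 at day −2 was −0.57 and −0.67. A fit without either of these libraries leaves a single library in that condition and no longer holds the spread between the pair. Its adjusted p-values and calls are therefore not firmer than those over all libraries.

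**Figure D1:**
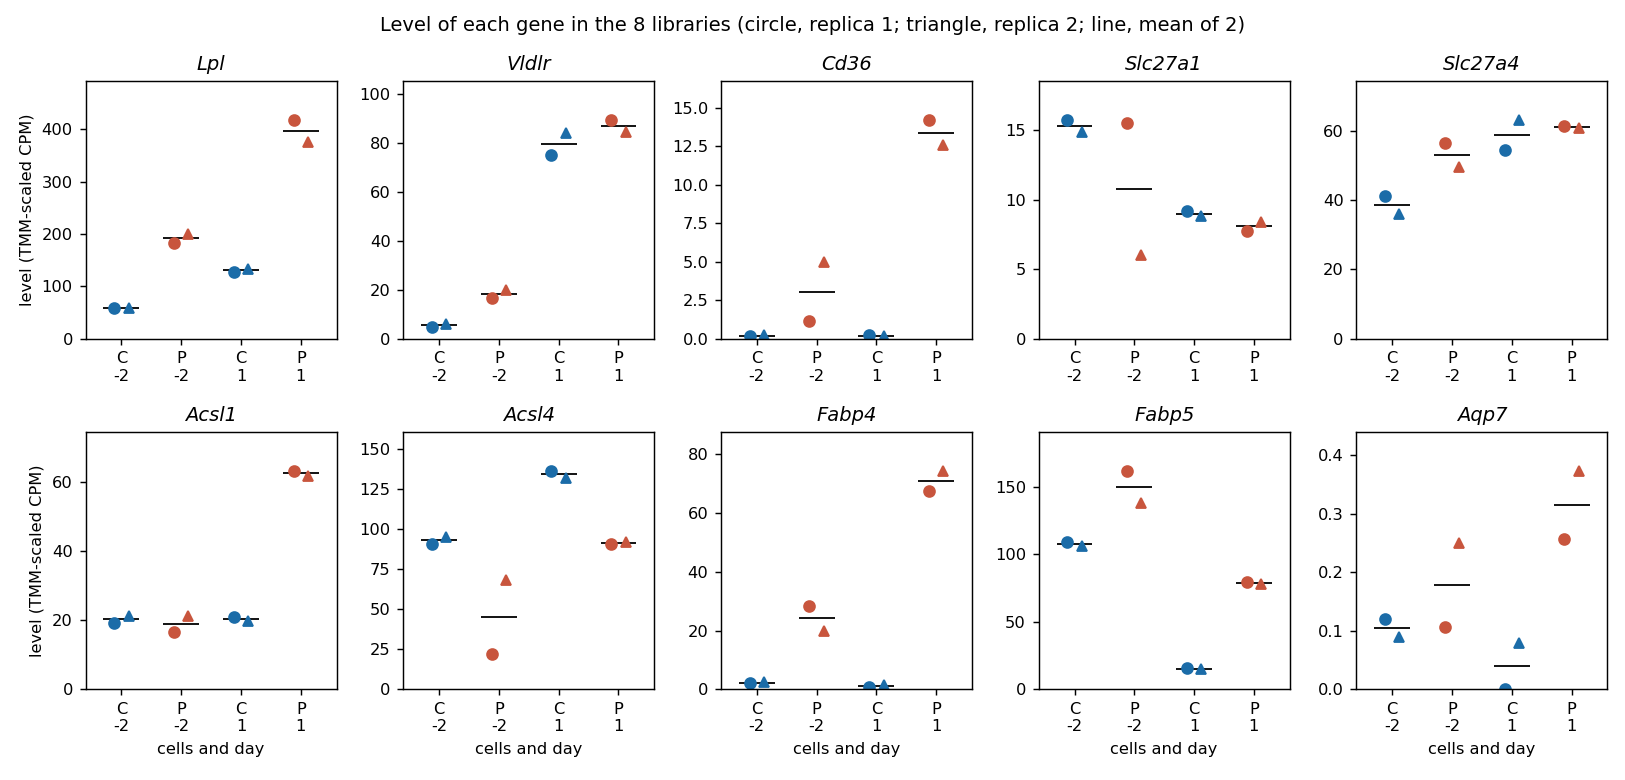
The level of each gene in TMM-scaled CPM (vertical axis, linear, starting at 0) is plotted for C cells (blue) and P cells (red) at day −2 and day 1, with a circle for replica 1, a triangle for replica 2 and a line for their mean. Lpl, Cd36, Acsl1 and Fabp4 were highest in both P libraries at day 1, Vldlr was high in all 4 libraries of day 1, and Fabp5 was lowest in both C libraries at day 1.

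Calls required an adjusted p under 0.1 (edgeR's quasi-likelihood test, Benjamini-Hochberg) together with a more than 2-fold change in either direction. Induction of C cells called 4 of the 9 tested genes, Lpl and Vldlr higher, Fabp4 and Fabp5 lower. Among all tested genes 20.4% were called in this comparison, 10.7% higher and 9.68% lower. Induction of P cells called 5 of the 9, all higher (Lpl, Vldlr, Cd36, Acsl1 and Fabp4), where 18% of all genes were called, 7.65% higher and 10.4% lower. P cells exceeded C cells at day −2 for 4 of the 9, Lpl, Vldlr, Cd36 and Fabp4, where 6.98% of all genes were called, 4.83% higher and 2.15% lower. At day 1, P cells exceeded C cells for 5 of the 9, Lpl, Cd36, Acsl1, Fabp4 and Fabp5, where 4.06% of all genes were called, 1.83% higher and 2.23% lower. The responses of P and C cells to induction differed for 4 of the 9, at an adjusted p under 0.1 without a threshold on size. The response was larger, or less negative, in P cells for Acsl1, Fabp4 and Fabp5 and smaller for Vldlr, where 2.37% of all genes were called, 0.435% higher and 1.93% lower. Slc27a1, Slc27a4 and Acsl4 were called in no comparison.

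The median log2 ratio of the 9 genes was 0.06 in the induction of C cells, where that of all genes was −0.01, and 1.05 in the induction of P cells, where that of all genes was 0.02. Between P and C cells it was 0.47 at day −2 and 1.60 at day 1, beside 0.01 for all genes on both days. The median of the 9 genes without P day −2 replica 1 and replica 2 was 0.98 and 1.32 in the induction of P cells and 0.36 and 0.58 at day −2. Both inductions share no library, but each comparison of P with C cells shares libraries with both inductions, so the comparisons are not independent of each other.

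**Figure D2:**
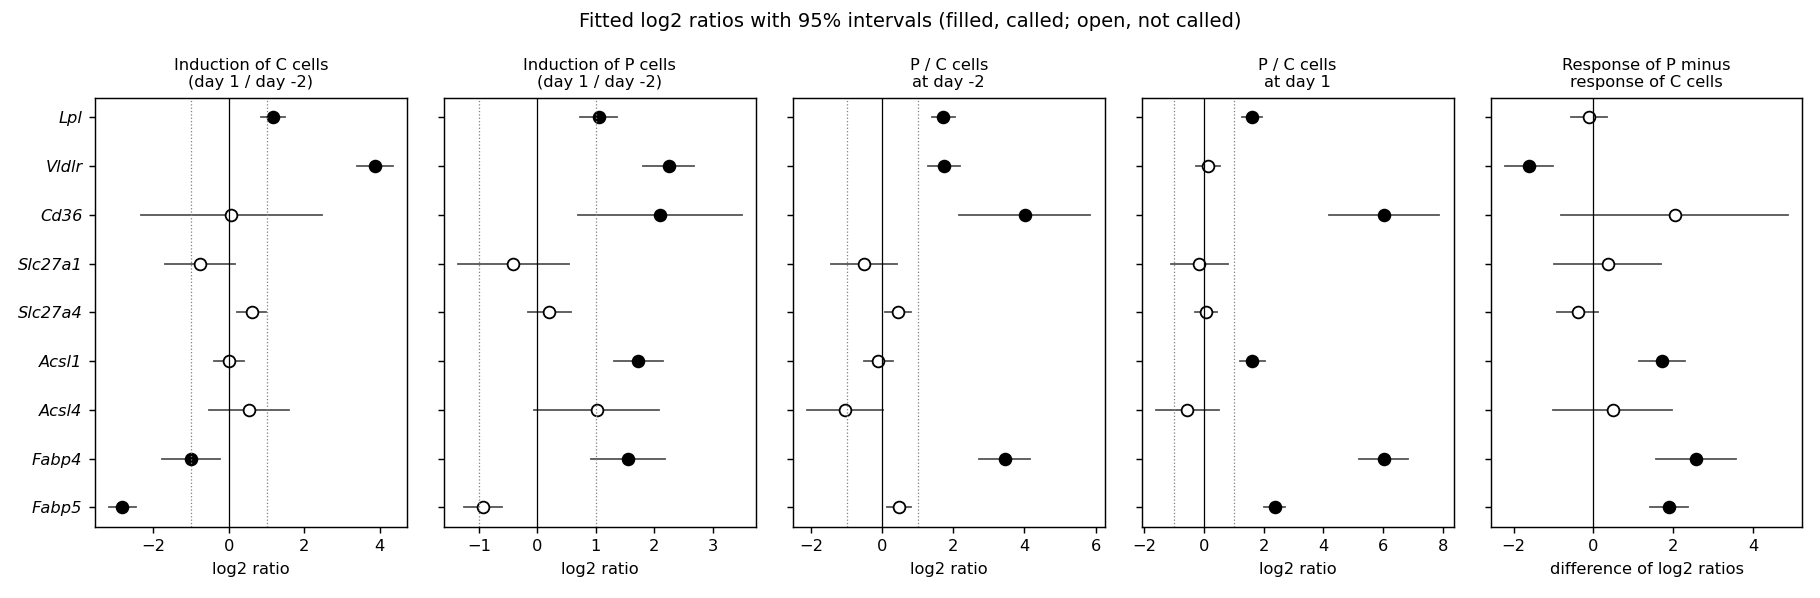
Fitted log2 ratios of the 9 tested genes (points) with 95% intervals (bars) are plotted for the 4 comparisons and for the response of P cells minus that of C cells, with filled points for called genes and dotted lines at a ratio of 2 and 0.5. No gene of the group was called lower in P than in C cells, and Cd36, with 4 to 6 counts in each C library, had the widest intervals.

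Lpl (NCBI gene 16956), the lipase that frees fatty acids outside the cell, was higher in P cells on both days and rose with induction in both cells. At day −2 it was read at 58.6 and 57.7 CPM in the C libraries and at 183 and 200 CPM in the P libraries. At day 1 it was read at 127 and 133 CPM in C cells and at 417 and 375 CPM in P cells. The 4 conditions did not overlap, and uninduced P cells lay above induced C cells, a difference that was not tested. The log2 ratio of P over C cells was 1.72 (SE 0.14, adjusted p = 0.0020, edgeR) at day −2 and 1.60 (SE 0.14, adjusted p = 0.00339) at day 1. Induction raised it by 1.17 (SE 0.14, adjusted p = 0.00153) in C cells and by 1.05 (SE 0.14, adjusted p = 0.00294) in P cells. The 2 responses differed by −0.12 (95% interval −0.57 to 0.33, adjusted p = 0.723, edgeR), a difference that was not called. Its value turned to 0.17 when library totals replaced TMM. Without P day −2 replica 1, or without P day 1 replica 1, the rise in P cells was 0.98 and fell just short of a 2-fold ratio, and without P day −2 replica 2 it was 1.12. The excess of P over C cells at day −2 was 1.79 and 1.65 without the one or the other P library.

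Vldlr (NCBI gene 22359), the receptor for triglyceride-rich lipoproteins, was the gene of the group with the largest response to induction in C cells. Its level was 4.82 and 6.07 CPM in C cells and 16.5 and 19.98 CPM in P cells at day −2. At day 1 it was 74.8 and 83.9 CPM in C cells and 89.2 and 84.3 CPM in P cells. P cells thus began above C cells, while the day 1 libraries lay close together, with 84.3 and 83.9 CPM as the nearest P and C values. The log2 ratio of induction was 3.86 (SE 0.20, adjusted p = 8.03e-05, edgeR) in C cells and 2.25 (SE 0.18, adjusted p = 0.000567) in P cells. P cells exceeded C cells by 1.74 (SE 0.19, adjusted p = 0.00435) before induction, and by 0.13 (95% interval −0.29 to 0.54, adjusted p = 0.838) after it. The difference at day −2 was 1.89 and 1.59 without replica 1 and replica 2 of the P cells, and it lost the call only when the 2 conditions were fitted alone (adjusted p = 0.139). The response of P cells was smaller than that of C cells by −1.62 (SE 0.25, adjusted p = 0.0414), a call that scaling by library totals ended (−1.33, adjusted p = 0.150).

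Cd36 (NCBI gene 12491), the membrane protein that takes up long-chain fatty acids, was near the limit of detection in C cells and present in P cells. The C libraries held 4 and 5 counts at day −2 and 6 and 4 counts at day 1, or 0.159 to 0.237 CPM. The P libraries held 21 and 140 counts at day −2 and 332 and 269 counts at day 1, or 1.12 and 4.99 CPM followed by 14.2 and 12.6 CPM. Every P library lay above every C library, but the 2 uninduced P libraries differed from each other 4.47-fold. P cells exceeded C cells by a log2 ratio of 4.00 (SE 0.78, adjusted p = 0.0350, edgeR) at day −2 and 6.04 (SE 0.78, adjusted p = 0.0113) at day 1. Without P day −2 replica 1 the ratio at day −2 was 4.70, and without replica 2 it was 2.53. Induction of P cells gave 2.10 (SE 0.59, adjusted p = 0.0464), which ranged from 1.41 without P day −2 replica 1 to 3.58 without replica 2. In C cells the response was 0.06, with an interval from −2.33 to 2.46 that the few counts leave wide. The call of P against C cells was lost at day −2 without either C library of that day (adjusted p = 0.288 and 0.256) and at day 1 when any single library of that day was left out (adjusted p up to 0.152). The call in the induction of P cells was lost without either P library of day 1 (adjusted p = 0.192 and 0.171). With only the groups compared in the fit, the calls in the induction of P cells and between P and C cells at day −2 were lost as well (adjusted p = 0.191 and 0.224). The difference between the responses was 2.04 (95% interval −0.81 to 4.88, adjusted p = 0.424) and was not called.

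Slc27a1 and Slc27a4 (NCBI genes 26457 and 26569) encode FATP1 and FATP4, transport proteins with acyl-CoA synthetase activity. Slc27a1 was read at 15.7 and 14.8 CPM in C cells at day −2 and at 9.16 and 8.84 CPM at day 1. In P cells it was read at 15.5 and 6.03 CPM at day −2 and at 7.74 and 8.40 CPM at day 1. The first uninduced P library was level with the C libraries and the second was the lowest of all 8, so P and C cells overlapped at day −2. None of its ratios was called over all libraries. The P to C ratio of day −2 went from −0.51 to −1.33 without replica 1 of the P cells and to 0.02 without replica 2. In the induction of P cells its ratio of −0.41 became 0.41 and −0.93 in the same settings. Slc27a4 was read at 41.3 and 36.1 CPM in C cells and 56.5 and 49.5 CPM in P cells at day −2, and at 54.3 and 63.0 CPM in C cells and 61.3 and 60.9 CPM in P cells at day 1. Its response in C cells had a log2 ratio of 0.60 (SE 0.16, adjusted p = 0.0316, edgeR), under the 2-fold threshold. At day 1 its P to C ratio was 0.06 (95% interval −0.31 to 0.43).

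Acsl1 (NCBI gene 14081), the acyl-CoA synthetase known for its abundance in fat, rose with induction in P cells. Its level was 19.3 and 21.2 CPM in C cells and 16.5 and 21.2 CPM in P cells at day −2. At day 1 it was 21.0 and 19.7 CPM in C cells but 63.2 and 61.9 CPM in P cells. The 6 other libraries overlapped, and both induced P libraries lay about 3-fold above them. Induction gave a log2 ratio of 1.73 (SE 0.17, adjusted p = 0.00113, edgeR) in P cells and of 0.01 (95% interval −0.40 to 0.41) in C cells. The difference between the 2 responses was 1.73 (SE 0.24, adjusted p = 0.0276). At day 1 P cells lay above C cells by 1.62 (SE 0.17, adjusted p = 0.00605), with an adjusted p of 0.101 to 0.108 when P day 1 replica 1, P day 1 replica 2 or C day 1 replica 2 was left out. At day −2 the ratio was −0.11, and it changed sign with the P library left out, 0.07 without replica 1 and −0.30 without replica 2.

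Acsl4 (NCBI gene 50790), a synthetase that prefers arachidonic acid, moved differently. It was read at 90.8 and 94.9 CPM in C cells and at 21.8 and 68.1 CPM in P cells at day −2. At day 1 it was read at 136 and 132 CPM in C cells and at 90.6 and 91.6 CPM in P cells. Both P libraries were below both C libraries on each day, yet no ratio was called over all libraries, and the 2 uninduced P libraries differed 3.13-fold. The fitted log2 ratio, P over C, was −1.04 (95% interval −2.11 to 0.03, adjusted p = 0.205, edgeR) at day −2 and −0.56 (95% interval −1.62 to 0.50) at day 1. Without P day −2 replica 2 the first of these was −2.10, and without replica 1 it was −0.44. The ratio at day 1 was −0.56 and −0.58 in these settings, still under the 2-fold threshold. Induction of P cells gave 1.02 (adjusted p = 0.152), which became 0.41 without P day −2 replica 1 and 2.07 without replica 2.

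Fabp4 (NCBI gene 11770), the binding protein aP2 of mature fat cells, had the largest ratios of P to C cells in the group after Cd36. Its C libraries held 52 and 53 counts at day −2 and 20 and 35 counts at day 1, or 2.07, 2.35, 0.789 and 1.39 CPM. Its P libraries lay at 28.4 and 19.8 CPM at day −2 and at 67.4 and 74.3 CPM at day 1. No condition overlapped another. P cells exceeded C cells by a log2 ratio of 3.44 (SE 0.30, adjusted p = 0.00242, edgeR) at day −2 and of 6.01 (SE 0.34, adjusted p = 0.00092) at day 1. Without the one or the other uninduced P library the first ratio was 3.17 and 3.68. Induction raised Fabp4 by 1.56 (SE 0.27, adjusted p = 0.0090) in P cells. In C cells Fabp4 fell by 1.01 (adjusted p = 0.0602), a call that was lost without either C library of day −2, without C day 1 replica 1, without either P library of day 1, without P day −2 replica 1 and when no gene was filtered out, with values between −1.10 and −0.63 in these settings. The responses of P and C cells differed by 2.57 (SE 0.42, adjusted p = 0.0462), and by 2.57 with an adjusted p of 0.117 when the replica number was fitted as a block.

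Fabp5 (NCBI gene 16592), the epidermal form of the binding protein, which fat cells also make, fell with induction in C cells. It was read at 109 and 107 CPM in C cells and at 162 and 138 CPM in P cells at day −2. At day 1 it was read at 15.6 and 15.1 CPM in C cells and at 79.9 and 78.1 CPM in P cells. The 4 conditions did not overlap, with uninduced P cells at the top and induced C cells at the bottom. Induction lowered Fabp5 in C cells by a log2 ratio of −2.82 (SE 0.15, adjusted p = 8.03e-05, edgeR). In P cells the ratio was −0.92 (SE 0.14, adjusted p = 0.00531), under the 2-fold threshold, and −1.03 without P day −2 replica 2, which passed it. The difference between the responses was 1.89 (SE 0.20, adjusted p = 0.0110), the smallest adjusted p of the group in this comparison. P cells exceeded C cells by 0.47 (SE 0.14, adjusted p = 0.0991) at day −2, below the 2-fold threshold, and by 2.37 (SE 0.15, adjusted p = 0.00113) at day 1. A pseudogene of Fabp5 is known in the mouse and is no entry of the table, and how reads with several places in the genome were counted is not given in the sources used here, so some Fabp5 reads could be lost or shared.

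For the other genes of the group, leaving out an uninduced P library moved the ratios as follows. Without P day −2 replica 1 the induction of P cells gave 2.11 for Vldlr, 1.55 for Acsl1, 1.83 for Fabp4, −0.81 for Fabp5 and 0.29 for Slc27a4, and without replica 2 it gave 2.41, 1.93, 1.32, −1.03 and 0.12 in that order. At day −2 the P to C ratio was 0.36 and 0.58 for Fabp5 and 0.36 and 0.54 for Slc27a4 without replica 1 and replica 2.

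Aqp7 (NCBI gene 11832), the glycerol channel, held 3 and 2 counts in C cells and 2 and 7 counts in P cells at day −2, and 0 and 2 counts in C cells and 6 and 8 counts in P cells at day 1. The C libraries reached at most 3 counts, the level at which a gene is not told from 0, so no fold is given. Aqp7 had too few counts to be tested.

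The 4 differences in response rested on few libraries. The 4 calls all disappeared when either C library of day −2 or either P library of day 1 was left out. Without C day 1 replica 1 only Fabp5 was called, and without C day 1 replica 2 Fabp4 and Fabp5 were. The sizes moved less, between −1.79 and −1.46 for Vldlr, 1.52 and 1.92 for Acsl1, 2.21 and 3.04 for Fabp4 and 1.78 and 1.98 for Fabp5. The fits without P day −2 replica 1 or replica 2 no longer hold the spread of that pair, so their calls are not counted here. The number of all genes called moved as well when a library was left out.

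Within a library, the balance between close relatives can be read from the counts alone, with no scaling between libraries. Since the genes differ in length, these shares describe how a balance moved between libraries and not which protein was more abundant. Fabp4 made up 1.86% and 2.16% of the counts of Fabp4 and Fabp5 together in uninduced C cells, and 14.9% and 12.6% in uninduced P cells. At day 1 its share was 4.82% (95% exact binomial interval 2.97% to 7.35%) and 8.47% (5.97% to 11.6%) in C cells. In P cells it reached 45.7% and 48.8%. The rise of the share in C cells came with the fall of both genes, while in P cells Fabp4 rose. Acsl1 made up 17.5% and 18.3% of the counts of Acsl1 and Acsl4 in C cells at day −2, and 13.4% and 13.0% at day 1. In P cells its share was 43.0% and 23.7% at day −2 and 41.1% and 40.3% at day 1. The 2 uninduced P libraries thus disagreed about the Acsl balance by more than their counting error, and the induced ones did not. Slc27a1 went from 27.6% and 29.2% of its pair in uninduced C cells to 14.4% and 12.3% in induced C cells, and from 21.5% and 10.9% to 11.2% and 12.1% in P cells. These intervals cover counting error only, and with 2 replicas against 2 an exact permutation test could not give a p under 0.333, so none was made.

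**Figure D3:**
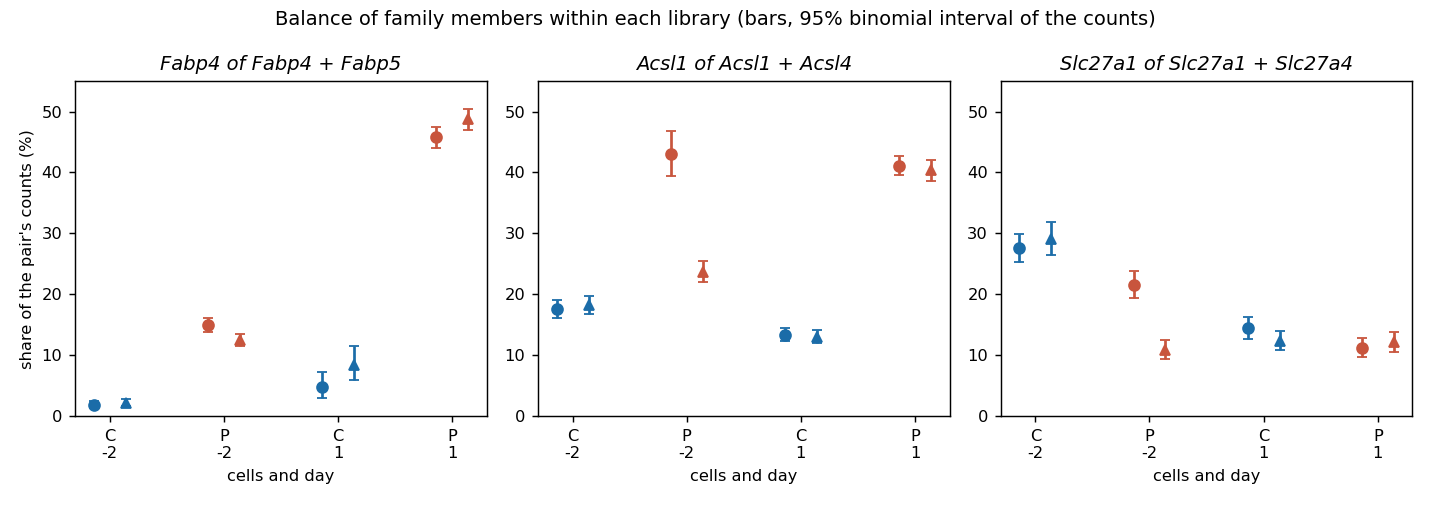
The share of the first gene in the summed counts of its pair (vertical axis, %) is plotted for each library, with C cells in blue, P cells in red, circles for replica 1, triangles for replica 2 and bars for the 95% exact binomial interval of the counts. The Fabp4 share was 1.86% to 8.47% in C cells and 12.6% to 48.8% in P cells. The intervals of the 2 uninduced P libraries did not overlap in any panel, and the gap was wider in the other 2 panels.

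Fabp4 and Fabp5 lie close together in the RefSeq gene list of the mouse (GRCm38.p6, used for gene order only), with Pmp2, Fabp9 and Fabp12, genes of the same binding protein family, as coding neighbours. None of these 3 neighbours had more than 5 counts in a library, too few for a change to be tested.

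The markers of mature fat cells moved with part of the group. The summed level of 7 such markers (Adipoq, Cidec, Plin1, Lep, Retn, Cfd and Slc2a4) was 0.558 to 0.576 CPM in C cells and 2.75 to 5.65 CPM in P cells at day −2, and 0.796 to 1.26 CPM in C cells and 68.2 to 73.2 CPM in P cells at day 1. Among the 6 that were tested, 2 were called higher in P than in C cells at day −2 (Adipoq and Plin1) and 5 at day 1. Of all tested genes, 4.83% were called higher and 2.15% lower at day −2, and 1.83% higher and 2.23% lower at day 1. Plin1 alone made up 4.85 and 1.68 CPM of the day −2 sums in replica 1 and replica 2 of the P cells. Adipoq held 1 and 1 counts in C cells and 5 and 7 counts in P cells on that day. Slc2a4 went the other way, with 5 and 4 counts in C cells and 0 and 2 counts in P cells, and was not called. Lep was at 0 in C cells at day −2, and Cfd and Slc2a4 in C cells at day 1. The part of these fat cell markers in the higher Cd36, Fabp4 and Acsl1 of P cells was not tested. In bulk RNA a larger number of fat-like cells and more RNA per cell cannot be told apart. The 6 preadipocyte markers gave 2 calls at day −2 too, Thy1 and Pdgfrb, both higher in P cells, and 0 at day 1. At day −2 Thy1 was read at 140 and 134 CPM in C cells and at 941 and 684 CPM in P cells. Pdgfrb was read at 164 and 150 CPM in C cells and at 542 and 362 CPM in P cells. Cd36 and Fabp4 are also made by macrophages and endothelial cells. The summed level of 6 macrophage markers (Ptprc, Csf1r, Adgre1, Cd68, Lyz2 and Fcgr1) reached 8.05 CPM in the C libraries and 7.95 CPM in the P libraries at day −2. After induction the highest C library had 4.34 CPM and the highest P library 6.82 CPM, and both induced P libraries lay above both induced C libraries. Of the 3 tested, Lyz2, the lysozyme of myeloid cells, was called higher in P cells at day −2, with 7 and 2 counts in the C libraries against 31 and 126 counts in the P libraries (log2 ratio 4.01, adjusted p = 0.0365), and Csf1r, the receptor for a macrophage growth factor, was called lower (−1.55, adjusted p = 0.0799). At day 1 the C libraries held 4 and 1 counts of Lyz2 and the P libraries 17 and 22 counts, a ratio of 3.08 that was not called (adjusted p = 0.130). The part of these markers in the levels of Cd36 and Fabp4 was not tested. For 5 endothelial markers (Pecam1, Cdh5, Kdr, Tek and Emcn) the summed level was 0.438 to 2.39 CPM, with the highest library among induced P cells and none of the markers called in any comparison over all libraries. With P day −2 replica 1 or replica 2 left out, the ratios at day −2 were 2.44 and 2.51 for Adipoq and 4.63 and 6.14 for Plin1. For Lyz2 they were 4.56 and 3.10, and for Csf1r −1.79 and −1.33.

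The other genes of fatty acid handling were described with 8 lists of 57 genes, of which 36 had enough counts to be tested. Induction of C cells called 7 of the 36 higher and 7 lower, and induction of P cells 4 higher and 4 lower. P against C cells called 5 higher and 3 lower at day −2, and 1 at day 1, which was lower, and the difference in response called 2, Cebpa and Cebpd, both lower. Among all tested genes, the shares called higher and lower were 10.7% and 9.68% in the induction of C cells, 7.65% and 10.4% in that of P cells, 4.83% and 2.15% at day −2, 1.83% and 2.23% at day 1 and 0.435% and 1.93% for the difference in response, so that at day 1 a count near 0 among 36 genes was close to the share of all genes. At day 1 the 1 call was Cpt1a, which brings acyl groups into mitochondria, at −1.14 (adjusted p = 0.0140, edgeR). The median log2 ratio of the 36 genes in the induction of P cells was 0.18 over all libraries. It was 0.04 and 0.12 without P day −2 replica 1 and replica 2. For P against C cells at day −2 the median was −0.17 over all libraries, and 0.11 and −0.10 in the same settings.

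Among 8 other uptake proteins, 5 were tested. Scarb1, the HDL receptor and a relative of Cd36, fell with induction by a log2 ratio of −2.95 (adjusted p = 8.03e-05, edgeR) in C cells and of −2.15 (adjusted p = 0.000342) in P cells, from 51.2 to 53.4 CPM and 32.3 to 33.2 CPM. It ended at 6.73 and 6.75 CPM in C cells and at 7.003 and 7.78 CPM in P cells. Among 10 other lipid binding proteins, 3 were tested. Crabp2, a retinoic acid binding protein, rose with induction by 1.14 (adjusted p = 0.0670) in C cells and 2.14 (adjusted p = 0.0147) in P cells. It was lower in P than in C cells at day −2, by −1.62 (adjusted p = 0.0803), the opposite direction to that of Fabp4.

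Among 7 other acyl-CoA synthetases, 4 were tested. Acsbg1, of the bubblegum family, went from 40.1 CPM (mean of 2) to 1.37 CPM in C cells, a log2 ratio of −4.87 (adjusted p = 0.00049, edgeR), and from 8.79 to 0.708 CPM in P cells, −3.64 (adjusted p = 0.00222). It was already lower in P than in C cells at day −2, by −2.19 (adjusted p = 0.0201). Acsl3 fell by −1.31 (adjusted p = 0.0222) in C cells, and Acss2, which makes acetyl-CoA from acetate, was higher in P cells at day −2 by 1.62 (adjusted p = 0.00523). None of the 4 was called higher in induced P cells, as Acsl1 was.

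Of 12 partners of lipoprotein lipase, 5 were tested. Lipg, an endothelial lipase of the same family, fell with induction by −3.65 (adjusted p = 0.00145, edgeR) in C cells and by −3.24 (adjusted p = 0.00459) in P cells, and was lower in P cells at day −2 by −1.47 (adjusted p = 0.0695). Angptl4, an inhibitor of the lipase, was read at 149 and 153 CPM in C cells and at 74.6 and 77.9 CPM in P cells before induction, a log2 ratio of −0.99 (adjusted p = 0.00742) just under the 2-fold threshold. Gpihbp1, which anchors the lipase on the capillary wall, was at 0 in all C libraries. The P libraries together held 6 counts of it at day −2 and 1 at day 1, too few to read a contrast. Angptl4 and Gpihbp1 were named after their values were seen. All 4 other lipoprotein receptors and chaperones were tested. Lrp8 fell by −4.01 (adjusted p = 0.000208) in C cells and −4.04 (adjusted p = 0.00031) in P cells, and Sort1, the sorting receptor sortilin, by −1.19 (adjusted p = 0.0146) in C cells. Lrpap1, the chaperone of the receptor family, rose by 1.03 (adjusted p = 0.00364) and 1.17 (adjusted p = 0.00288), and Lrp1 by 1.57 (adjusted p = 0.00753) in C cells. Lrp8, a close relative of Vldlr, was thus called in the opposite direction to Vldlr in both inductions.

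Of 4 aquaglyceroporins and glycerol kinase, 3 were tested, and Gk, the kinase, fell by −1.46 (adjusted p = 0.0379, edgeR) in C cells. Of 6 genes of mitochondrial fatty acid entry, all were tested, and Cpt2 rose by 1.24 (adjusted p = 0.00163) in C cells. Among 6 transcription factors of the fat cell programme, all tested, Cebpa, Cebpd and Cebpb rose in C cells by 4.37 (adjusted p = 0.000685), 3.02 (adjusted p = 0.00137) and 1.62 (adjusted p = 0.00352). They were higher in P than in C cells at day −2 by 2.75 (adjusted p = 0.0131), 2.63 (adjusted p = 0.00819) and 1.08 (adjusted p = 0.0453), and Ppara by 3.19 (adjusted p = 0.0593) at a mean of 0.631 CPM. In P cells Pparg rose by 1.89 (adjusted p = 0.00433) and Cebpa by 1.76 (adjusted p = 0.0149). Pparg, the receptor that activates Fabp4, Cd36 and Lpl, was read at 19.2 and 19.5 CPM in C cells and at 12.1 and 21.2 CPM in P cells at day −2. At day 1 it lay at 34.2 and 41.2 CPM in C cells and at 60.5 and 63.5 CPM in P cells. Its ratio of P to C cells was −0.21 (adjusted p = 0.602, edgeR) at day −2 and 0.72 (adjusted p = 0.228) at day 1. These are RNA levels, and the part of the receptor in the levels of Fabp4, Cd36 and Lpl was not tested.

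Several of these calls were lost when a single library was left out, in some cases one outside the comparison, while none of these ratios changed sign. At day −2 the calls of Crabp2, Lipg, Cebpb and Ppara were lost when any C library or any P library of day 1 was left out, with an adjusted p of up to 0.437, 0.426, 0.342 and 0.400, and those of Crabp2, Cebpb and Ppara also without P day −2 replica 1. The calls of Acsbg1 and Cebpa at day −2 were lost without either C library of that day (adjusted p up to 0.176 and 0.161), and that of Cebpd without C day −2 replica 1. In the induction of C cells Acsl3 and Gk lost their call when any C library was left out (adjusted p up to 0.146 and 0.206), Lrpap1 without replica 2 of either C condition, Sort1 without C day −2 replica 1 or C day 1 replica 2 (adjusted p up to 0.119), and Crabp2 when any C library or any P library of day 1 was left out. At day 1 Cpt1a lost it when any library of that day was left out (adjusted p up to 0.199). Crabp2 in the induction of P cells lost it without P day 1 replica 1 (adjusted p = 0.101). With only the groups compared in the fit, Acsbg1 alone kept its call among the genes of these lists at day −2. Those of Acss2, Cebpd, Cebpa, Crabp2, Lipg, Cebpb and Ppara were lost (adjusted p = 0.128, 0.132, 0.171, 0.361, 0.250, 0.273 and 0.241), as were those of Cebpa and Crabp2 in the induction of P cells (adjusted p = 0.110 and 0.112). Scaling by library totals ended the calls of Crabp2 and Lrpap1 in the induction of C cells (1.03 and 0.92) and of Cebpb at day −2 (0.86).

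The genes of these lists were also read without either uninduced P library. Without replica 1, the induction of P cells gave −3.56 for Acsbg1, −2.90 for Lipg, −3.69 for Lrp8, −2.17 for Scarb1, 1.82 for Crabp2, 1.04 for Lrpap1, 1.54 for Pparg and 2.42 for Cebpa. Without replica 2 it gave −3.74, −3.53, −4.33, −2.12, 2.63, 1.31, 2.36 and 1.29 in that order. At day −2 the P to C ratio without replica 1 was −2.28 for Acsbg1, −1.81 for Lipg and 1.5 for Acss2. It was 2.09 for Cebpa and 2.08 for Cebpd. Without replica 2 these ratios were −2.10, −1.17, 1.74, 3.22 and 3.04 in the same order. Crabp2, Cebpb and Ppara gave −1.30, 0.75 and 2.79 without replica 1, and −2.11, 1.35 and 3.55 without replica 2. For Angptl4 the ratio was −1.01 and −0.96, and for Pparg it was 0.14 and −0.68.

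**Figure D4:**
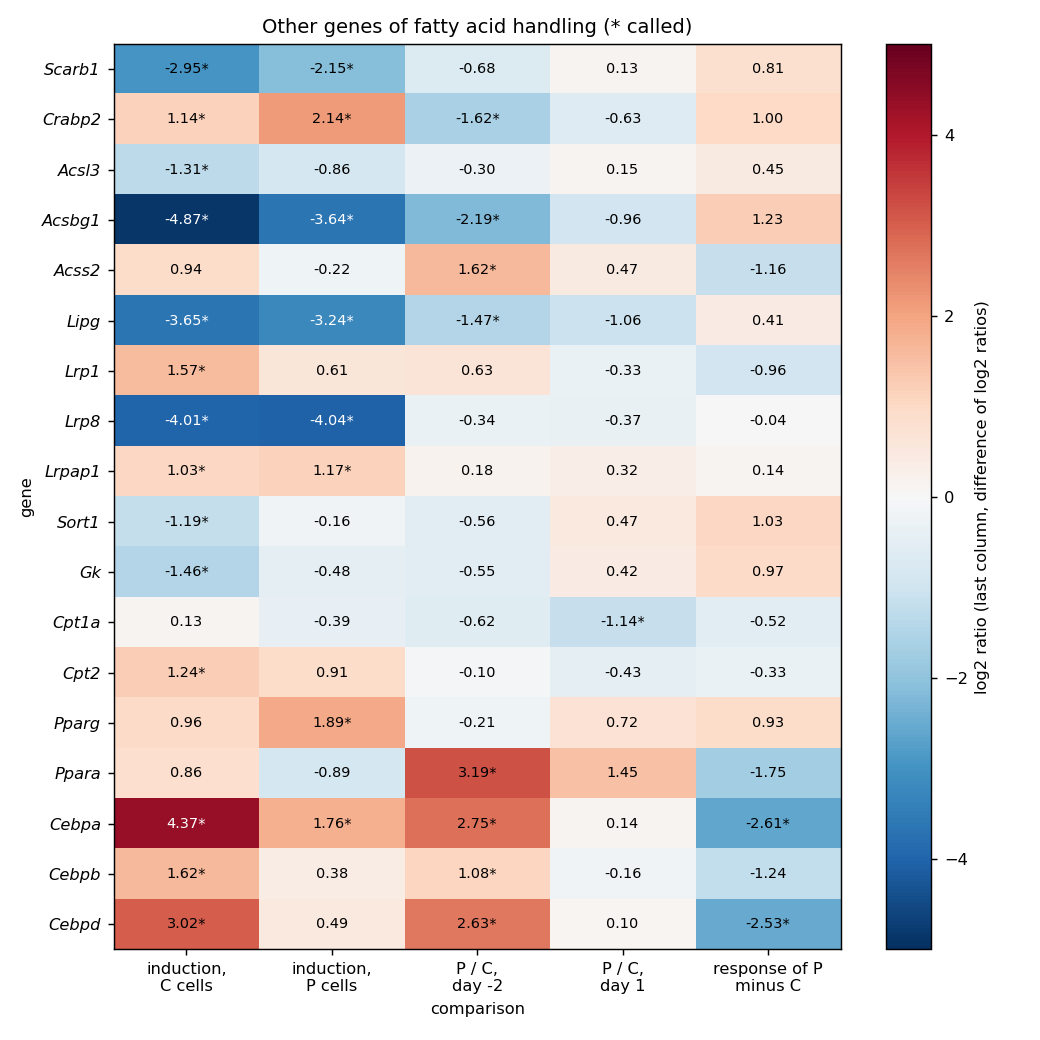
Fitted log2 ratios of the 18 named genes of the other lists (rows) are given for the 4 comparisons and, in the last column, for the response of P cells minus that of C cells, with an asterisk for a called gene and colours from blue (lower) to red (higher). In the column of P against C cells at day 1 Cpt1a was called lower and no gene was called higher, and Lrp8 was called lower in both inductions.

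For each tested gene of the group, the genes whose log2 CPM followed it most closely over the 8 libraries were searched among 10903 genes. These correlations describe 4 conditions of 2 libraries each, and many genes share such a pattern. Lpl was followed by Dpep1 (r = 0.994) and Fat4 (r = 0.993), Vldlr by Il6st (r = 0.996) and Serhl (r = 0.996), and Cd36 by Cyb5a (r = 0.989) and Frs2 (r = 0.988). Fabp4 was followed by Atf6 (r = 0.989) and 4930550L24Rik (r = 0.985), and Fabp5 by Dpy19l3 (r = 0.986) and Slc19a1 (r = 0.986). Acsl1 was followed by Cidec (r = 0.977), a lipid droplet protein of the marker list above, and by Tmem65 (r = 0.964). For Slc27a1 they were Dennd2a (r = 0.969) and Frmd6 (r = 0.947), for Slc27a4 Fancg (r = 0.995) and Nat9 (r = 0.986), and for Acsl4 Ttc23 (r = 0.991) and Rpl23 (r = 0.991). No other gene of the group was among the closest 2 of any member.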

How the data were processed

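The deposited values are counts of reads per NCBI gene, whole numbers without normalization, from 8 Ion Torrent libraries. According to the methods and the submitters' processing notes, the authors removed read artifacts (FASTX-Toolkit), aligned to mm9 with TopHat2 2.0.9, counted them with R packages for genomic ranges and tested genes with DESeq. How multiply aligned reads were counted and whether strand was used are not given in the sources used here. Every sample column of the table was used.

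Symbols came from a RefSeq gene list (GRCm38.p6) and matched 23929 of 24013 genes, while 84 had none. In R 4.3.3, edgeR 4.0.16 removed weakly counted genes with filterByExpr, which left 13339, and scaled libraries by TMM. All 8 libraries entered one quasi-likelihood fit with a mean for each condition, and p-values (two-sided) were Benjamini-Hochberg adjusted over all tested genes. CPM on the log2 scale used a prior count of 2, in limma 3.58.1 and edgeR. Genes were called at an adjusted p under 0.1 with a ratio over 2 or under 0.5, and the difference between responses at an adjusted p under 0.1 alone. Log2 ratios are those of the fit and levels are TMM-scaled CPM. The scripts were tested on simulated data.

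The 10 genes, the 8 lists and the marker lists were chosen with earlier results of these data known. Named genes were all 10 members, from each list the called genes (at most 4 by lowest p in a comparison), and for each tested member the 2 genes with the highest Pearson r among genes with a mean of at least 50 counts. Genes outside these rules are said to be so in the text. Some genes of these lists are not reported here and were left out of the counts. Replica numbers came from the labels, which do not say that they mark shared cultures. Over 13339 genes, deviations of same-numbered libraries correlated between −0.355 and 0.209, so the numbers were not taken to pair the libraries. Alternatives were DESeq2 1.42.0, scaling by its size factors or by library totals, other filters and thresholds, only the groups compared, a replicate block, and each library left out in turn. Levels per transcript length and promoter sequences were not analysed here.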

Additional observations from a re-analysis of the deposited data

Results flagged for a closer look

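The interaction test of edgeR, which asks whether P cells and C cells responded differently to induction, singled out 4 genes of the group. The response of P cells minus that of C cells was −1.62 for Vldlr, 1.73 for Acsl1, 2.57 for Fabp4 and 1.89 for Fabp5 on the log2 scale, with adjusted p = 0.0414, 0.0276, 0.0462 and 0.0110. Among the other genes of fatty acid handling, the same test singled out 2 transcription factors, Cebpd with −2.53 (adjusted p = 0.0617) and Cebpa with −2.61 (adjusted p = 0.0836). Both libraries of P cells at day −2 enter these values, and they differed from each other more than the replicas of the other conditions. For the 6 genes the sign was the same in every alternative setting that was tried, and the call was not. All 6 calls were lost when either C library of day −2 or either P library of day 1 was left out. The replicate block ended those of Fabp4, Cebpd and Cebpa (adjusted p = 0.117, 0.134 and 0.176), and scaling by library totals ended that of Vldlr (adjusted p = 0.150). Without P day −2 replica 1 and replica 2 the differences were −2.00 and −2.94 for Cebpd and −1.97 and −3.08 for Cebpa.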

How the results depend on the processing

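Of 660 values of the 9 tested genes under the alternatives, 592 kept their direction and their side of the threshold, 46 kept the direction and lost the call, 8 gained a call and 14, none of them called over all libraries, changed sign. Calls held under every alternative that refitted the genes were those of Lpl, Vldlr and Fabp5 in the induction of C cells, of Vldlr, Acsl1 and Fabp4 in the induction of P cells, of Lpl and Fabp4 between P and C cells at day −2, and of Lpl, Fabp4 and Fabp5 at day 1. DESeq2 called as many of the 9 genes as edgeR in each comparison, and 886 genes in all in place of 316 for the difference in response. Fitting only the groups compared left 2 of the 4 calls of the group at day −2 (Lpl and Fabp4) and ended that of Cd36 in the induction of P cells. Over all genes it called 81 at day −2 in place of 931, 1213 in the induction of P cells in place of 2406, and 899 at day 1 in place of 542. An adjusted p under 0.05 left 602 genes at day −2 and 174 for the difference in response. Without a ratio threshold 4743 and 4192 genes were called in the inductions of C and P cells, and 1513 and 820 for P against C cells before and after induction. A demand for 10 or more counts in each library gave no value for Cd36.

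A replicate block, fitted although the labels do not say that the numbers mark shared cultures, called 597 genes at day −2 and 117 for the difference in response. Among the 9 genes it ended the call of Fabp4 in the latter and changed no other call. Among the named genes of the other lists it ended those of Crabp2 (1.16) in the induction of C cells, of Crabp2 (−1.63), Lipg (−1.46) and Ppara (3.19) at day −2, and of Cebpd (−2.48) and Cebpa (−2.58) in the difference in response, with adjusted p between 0.116 and 0.176. Deviations of same-numbered libraries correlated between −0.355 and 0.209. Crossing the replica numbers of the induced P cells, which was chosen after seeing the data, gave 148 genes for the difference in response, and crossing all day 1 numbers gave 313.

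Leaving out each library in turn gave 3 to 7 of the 9 genes in the induction of P cells, 3 to 5 in the day 1 comparison and 0 to 7 for the difference in response. Over all genes it gave 1664 to 3329 in the induction of C cells, 1248 to 5000 in that of P cells, 188 to 4380 at day −2, 63 to 994 at day 1 and 32 to 8395 for the difference in response. The highest of these, except in the induction of C cells and at day 1, came without P day −2 replica 2. With a library left out, values of genes without a call ranged across 0: in the induction of C cells −0.21 to 0.33 for Cd36 and −0.052 to 0.078 for Acsl1, in that of P cells −0.93 to 0.41 for Slc27a1, at day −2 −1.33 to 0.015 for Slc27a1 and −0.30 to 0.073 for Acsl1, at day 1 −0.075 to 0.15 for Slc27a4, and for the difference in response −0.18 to 1.15 for Slc27a1 and −0.14 to 1.54 for Acsl4. Library totals in place of TMM turned Cd36 (−0.042) and Acsl1 (−0.10) in the induction of C cells and Lpl in the difference in response (0.17), ended the call of Vldlr in the latter (−1.33), and the count filter turned Acsl1 (−0.0011). That scaling moved the median of all genes to −0.11 and 0.19 in the inductions of C and P cells, −0.18 and 0.11 between P and C cells, and 0.29 for the difference in response. It moved the share of higher calls from 42.4% to 54.5% in the induction of P cells, from 69.2% to 55.4% at day −2 and from 18.4% to 31.6% for the difference in response. The cause of these shifts was not tested. With 2 replicas a condition the spread rests on few libraries, and 4 to 6 counts limit what can be said of Cd36 in C cells. Levels per length and promoter motifs were not run, since no table of transcript lengths or promoters was used here. The values of Angptl4, of the markers and of the list medians without an uninduced P library were chosen after seeing the data.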
